A study of Mus musculus with 11 samples.

Results

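The vessel wall is described here through 8 genes in 11 left ventricles: Acta2, Tagln, Myh11, Cnn1, Smtn, Rgs5, Pdgfrb and Cspg4. They were taken as a named list of smooth muscle and pericyte genes and matched by symbol to Ensembl identifiers, and all 8 were found among the 25006 genes counted. All 8 were among the 14779 genes that passed the filter on low counts and were tested. The members were not chosen on a threshold of expression or fold change.

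The study asked whether Vegfc made by myeloid cells affects the mouse heart after myocardial infarction (MI), produced by permanent ligation of the left anterior descending coronary artery. RNA of the left ventricle was sequenced as stranded mRNA libraries, 1 per mouse, from naive control mice (n = 2: M45 and M44), naive Vegfc-deficient mice (n = 3: M34, M150 and M149), control mice 9 days after MI (n = 3: M38, M006 and M40) and Vegfc-deficient mice 9 days after MI (n = 3: M35, M913 and M900). MI samples were infarcted tissue, and naive samples were pieces of matching position and mass. The 9 days are those of the paper's methods, whereas its results text gives 1 week after MI. Vegfc-deficient mice carried Vegfc fl/fl and LysMCre, in which Cre is made from the Lyz2 locus and is active in myeloid cells such as macrophages and neutrophils, so mural cells are not its intended target. The genotype label of the control mice reads Vegfc fl/fl without Cre, whereas the labels' protocol and the paper's methods call them LysMCre mice, and a figure legend of the paper names C57BL/6 or Vegfc fl/fl. The ages of the mice were not given in the sources used here.

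Total counts ran from 10824989 to 26782728 per library, and the 3 counts used as a floor corresponded to 0.101 to 0.363 CPM (the count relative to the library size), a limit that covers counting error only. Vegfc itself lay at 21.9 to 45.5 CPM with overlapping genotypes in naive and in MI hearts. Lyz2, whose locus carries the Cre, was at 2121 to 5380.2 CPM in the 5 control libraries and at 12.4 to 1392 CPM in 5 of the 6 Vegfc-deficient libraries. The 1392 CPM belonged to M35, whose group mates M913 and M900 had 12.4 and 203 CPM. The remaining library, M149, labelled naive Vegfc-deficient, stood at 4565 CPM, inside the range of the control libraries. Values of the 8 genes that rest on M149 are therefore also given without it, and for other named genes it is said where a call changed without it. The level of Xist ran from 188 to 403 CPM after MI and from 0.624 to 11.8 CPM in naive hearts, while the sum of 4 Y-linked genes (Ddx3y, Eif2s3y, Kdm5d and Uty) was at most 1.84 CPM after MI and 152 to 195 CPM in naive hearts. MI and sex therefore cannot be told apart in any comparison of MI with naive hearts.

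Mural cells wrap the endothelial tube. Smooth muscle cells ring arteries and larger veins and contract through smooth muscle actin and myosin, whereas pericytes lie singly on capillaries inside the same basement membrane and are recruited when PDGF-B from the endothelium acts on their receptor, Pdgfrb. In a healing infarct, activated fibroblasts (myofibroblasts) also switch on actin-linked smooth muscle genes such as Acta2 and Tagln, so these transcripts are not exclusive to vessels, and in bulk tissue a change in cell number and a change in RNA per cell cannot be told apart.

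Many smooth muscle genes are read by serum response factor (SRF) through the CArG box, which is CC, 6 bases of A or T, and GG, and SRF works there with myocardin. A promoter entry of RefSeq on GRCm38.p6 was at hand for 5 of the 8 members (Acta2, Cnn1, Smtn, Rgs5 and Cspg4). In the 250 bases before the RefSeq start, 0 of these 5 held the strict box, which 1.47% of 32851 RefSeq promoters of the same length held. When 1 of the 6 inner bases was allowed to be something other than A or T, 8.59% of all promoters held a match and Acta2 was the 1 member of the 5 that did, with 2 matches. The matches are shown because Acta2 is the best known of these genes, each within 30 bases and read 5′ to 3′ on the gene's strand. The capitals mark the CArG-like letters and, in the second window, also TGGGAA, the core letters of the Notch effector RBPJ, which overlap them.

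Acta2 CArG-like match at 84 to 75 bases before the start (GRCm38.p6, chr19:34255438-34255467, minus strand): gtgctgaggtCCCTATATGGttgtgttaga

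Acta2 CArG-like match at 34 to 25 bases before the start (GRCm38.p6, chr19:34255388-34255417, minus strand): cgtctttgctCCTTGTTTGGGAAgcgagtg

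Of these 250 bases of Acta2, GENCODE release M21 places 217 inside the first, untranslated exon of a longer transcript. For comparison, the stretch before Cnn1, which moved with Tagln, and the one before Rgs5, which moved the other way, are given up to the most upstream annotated transcript. Neither held a CArG-like match, CATTCC (the MCAT letters of the TEAD factors, on 12.6% of all promoters) or TGGGAA (21.6%) on either strand, so they carry no capitals. Smtn held 1 match to the MCAT letters and 1 to the RBPJ letters, and no CArG-like match. The promoter of Acta2 held the MCAT letters as well, on the opposite strand at 146 to 141 bases before its start, and Cspg4 held none of the motifs. A match describes letters only, and the absence of one concerns this window alone.

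Cnn1, 213 bases (GRCm38.p6, chr9:22099003-22099215, plus strand): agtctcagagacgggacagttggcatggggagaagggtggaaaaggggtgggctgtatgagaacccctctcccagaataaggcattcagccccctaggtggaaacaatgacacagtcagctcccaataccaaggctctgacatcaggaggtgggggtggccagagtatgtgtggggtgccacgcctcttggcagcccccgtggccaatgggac

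Rgs5, 250 bases (GRCm38.p6, chr1:169655251-169655500, plus strand): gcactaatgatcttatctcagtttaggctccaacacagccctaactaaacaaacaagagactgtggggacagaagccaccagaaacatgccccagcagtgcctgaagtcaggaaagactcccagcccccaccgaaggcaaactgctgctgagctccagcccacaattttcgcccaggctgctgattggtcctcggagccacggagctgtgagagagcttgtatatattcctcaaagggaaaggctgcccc

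After MI, 5 of the 8 genes were called higher in control hearts (Acta2, Tagln, Myh11, Cnn1 and Pdgfrb), 1 was called lower (Rgs5) and 2 were not called (Smtn and Cspg4). The same division was found in Vegfc-deficient hearts. Between genotypes none of the 8 was called, in naive or in MI hearts. A call means an adjusted p under 0.05, and unless another tool is named, every adjusted p given here was computed with edgeR (quasi-likelihood test) and adjusted over all 14779 genes by the method of Benjamini and Hochberg. All values per library are CPM scaled by the TMM method, and a fold change is on the log2 scale with its standard error (SE).

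Of all genes tested, 26.3% were called higher, 24.1% lower and 50.4% in either direction in control hearts, so that 6 of 8 members called stood beside a background in which about every other gene was called. In Vegfc-deficient hearts the corresponding shares were 30.0%, 27.7% and 57.6%. Counts called in the gene lists below stand beside the same shares. The median log2 fold change of the 8 genes was 1.17 in control and 1.58 in Vegfc-deficient hearts, against 0.13 and 0.097 over all genes tested. Groups without overlap were seen in 7 of 8 members in control hearts, where 72.1% of all genes had them, and in 6 of 8 in Vegfc-deficient hearts, where 64.3% did. Each MI comparison uses the naive group of its own genotype, but all 11 libraries share 1 fit and its estimate of spread. The p-values thus depend on the spread between mice in all groups, also those outside the comparison.

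**Figure D1:**
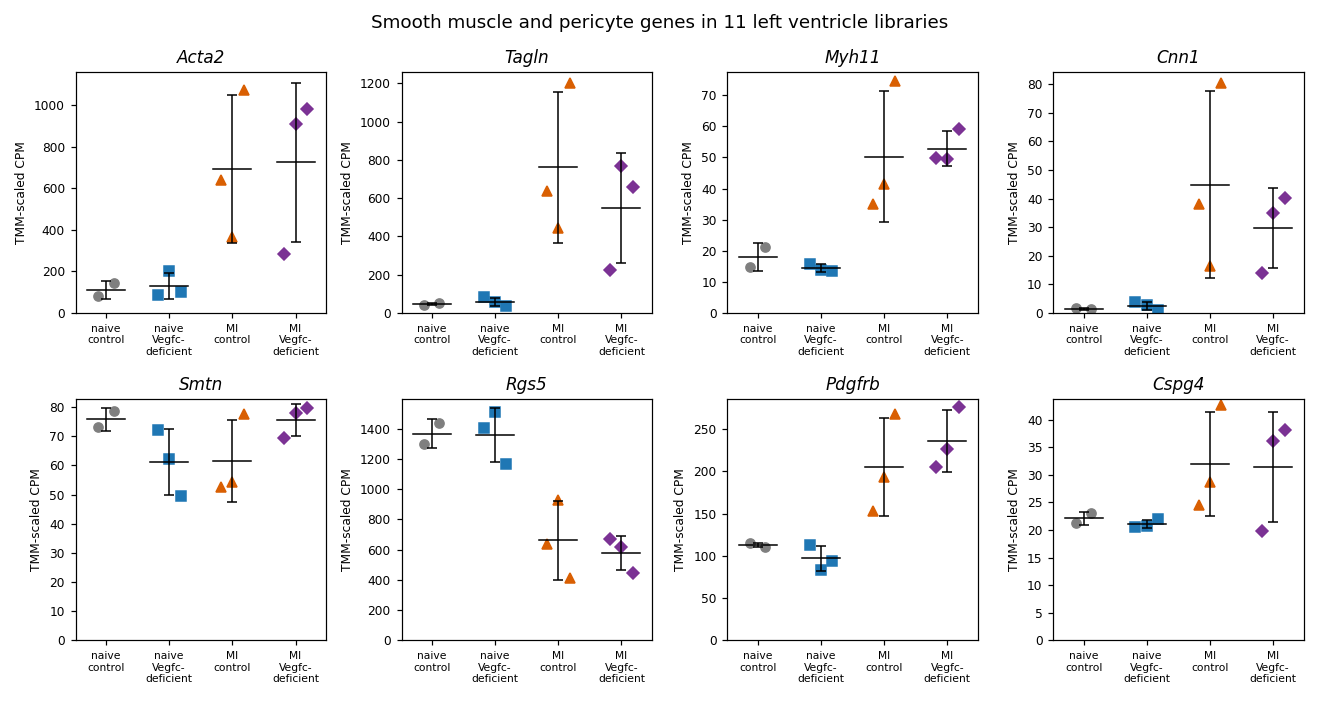
Each panel plots the TMM-scaled CPM (linear axis from 0) of 1 gene in 11 libraries by group. Points are libraries, black lines group means and bars 1 SD. Acta2, Tagln, Myh11, Cnn1 and Pdgfrb lie higher in every MI library than in every naive library, Rgs5 lies lower, and Smtn and Cspg4 overlap.

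Acta2 encodes smooth muscle alpha-actin, the thin filament of contractile mural cells and of myofibroblasts (ENSMUSG00000035783, chromosome 19, 34241090 to 34255590, GRCm38). Naive control libraries had 80.0 and 143 CPM and naive Vegfc-deficient libraries 85.1, 202 and 101 CPM. MI control libraries had 640.2, 366 and 1073 CPM and MI Vegfc-deficient libraries 286, 907 and 983 CPM. Every MI library lay above every naive library, although M35 (286 CPM) and M150 (202 CPM) came close. In control hearts Acta2 rose by 2.63 (SE 0.66, 6.20-fold, adjusted p = 0.00795) and in Vegfc-deficient hearts by 2.49 (SE 0.56, 5.61-fold, adjusted p = 0.00363). Without M149 the latter was 2.34 (adjusted p = 0.0146). Without naive control M45 the rise in control hearts was 2.28 and was no longer called (adjusted p = 0.0783).

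Tagln encodes transgelin (SM22 alpha), an actin-binding protein that marks smooth muscle early in its differentiation (ENSMUSG00000032085, chromosome 9, 45929619 to 45936058). It was at 44.2 and 50.4 CPM in naive control and at 81.5, 56.5 and 36.6 CPM in naive Vegfc-deficient hearts. After MI it was at 638, 443 and 1201 CPM in control and 225, 768 and 658 CPM in Vegfc-deficient hearts. All 6 MI values lay above all 5 naive values. Tagln rose by 4.01 (SE 0.65, 16.1-fold, adjusted p = 0.000912) in control and by 3.24 (SE 0.52, 9.45-fold, adjusted p = 0.000559) in Vegfc-deficient hearts, and by 2.99 without M149 (adjusted p = 0.00243). The gene shares 108 exon bases (5.43% of its own) with Pcsk7 on the opposite strand and 62.42% of its exon bases with an antisense gene that was not counted, and the strand setting of the counting was not given in the sources used here, so reads of these partners may be among its counts.

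Myh11, the smooth muscle myosin heavy chain and the most restricted marker of mature smooth muscle (ENSMUSG00000018830, chromosome 16, 14194535 to 14291372), was lower in level and moved less. Naive control hearts had 14.9 and 21.3 CPM and naive Vegfc-deficient hearts 15.8, 13.8 and 13.4 CPM. MI control hearts had 35.1, 41.3 and 74.4 CPM, MI Vegfc-deficient hearts 49.7, 49.5 and 59.2 CPM, and no MI value reached down to the naive range. The rise was 1.47 (SE 0.30, 2.78-fold, adjusted p = 0.00297) in control and 1.88 (SE 0.27, 3.68-fold, adjusted p = 0.000269) in Vegfc-deficient hearts, and 1.83 without M149 (adjusted p = 0.0013).

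Cnn1 encodes calponin, which binds actin and restrains the myosin motor (ENSMUSG00000001349, chromosome 9, 22099216 to 22109630). Naive hearts had little of it, with 1.81 and 1.25 CPM in control and 3.91, 2.66 and 1.18 CPM in Vegfc-deficient libraries, from 12 to 48 counts each. MI control hearts had 38.1, 16.3 and 80.3 CPM and MI Vegfc-deficient hearts 13.9, 34.9 and 40.3 CPM. The lowest MI value, 13.9 CPM in M35, was still above the highest naive value, 3.91 CPM in M34. Its rise was the largest of the 8 genes in both genotypes, 4.87 (SE 0.84, 29.3-fold, adjusted p = 0.00126) in control and 3.50 (SE 0.66, 11.3-fold, adjusted p = 0.0013) in Vegfc-deficient hearts, and 3.15 without M149 (adjusted p = 0.00544).

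Smtn, which encodes smoothelin, a cytoskeletal protein of contractile smooth muscle (ENSMUSG00000020439, chromosome 11, 3517523 to 3540612), did not follow them. It was at 73.1 and 78.7 CPM in naive control, 72.0, 62.1 and 49.5 CPM in naive Vegfc-deficient, 52.7, 54.2 and 77.6 CPM in MI control and 69.5, 77.9 and 79.6 CPM in MI Vegfc-deficient hearts. The MI and naive values overlapped in both genotypes. Fitted differences were −0.30 (SE 0.20, 95% interval −0.74 to 0.14, adjusted p = 0.223) in control and 0.31 (SE 0.18, interval −0.09 to 0.70, adjusted p = 0.163) in Vegfc-deficient hearts. Without MI control M40, the highest library of its group, the first became −0.50 and was called (adjusted p = 0.0433). Some 16.3% of the exon bases of Smtn lie opposite an antisense transcript that was not counted.

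Rgs5 encodes a regulator of G protein signalling that is typical of pericytes (ENSMUSG00000026678, chromosome 1, 169655501 to 169695813), and it was the 1 member that fell. Naive control libraries had 1299 and 1436 CPM and naive Vegfc-deficient libraries 1403, 1513 and 1165 CPM. MI control libraries had 639.8, 929 and 412 CPM and MI Vegfc-deficient libraries 668, 614 and 448 CPM. All MI values lay below all naive values. In control hearts it fell by 1.05 on the log2 scale (SE 0.32, 2.07-fold lower, adjusted p = 0.0193) and in Vegfc-deficient hearts by 1.24 (SE 0.29, 2.36-fold lower, adjusted p = 0.00476), or by 1.34 without M149 (adjusted p = 0.00657). In control hearts the call did not hold with either naive library left out (adjusted p = 0.0664 without M45 and 0.0981 without M44), nor with only these 5 libraries in the fit (adjusted p = 0.0534), while the log2 difference stayed between −0.98 and −1.12.

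Pdgfrb, the receptor through which PDGF-B recruits and keeps mural cells and which fibroblasts carry as well (ENSMUSG00000024620, chromosome 18, 61045150 to 61085061), went up. It was at 115 and 111 CPM in naive control and 113, 83.4 and 94.4 CPM in naive Vegfc-deficient hearts. After MI it was at 153, 194 and 268 CPM in control and 205, 227 and 276 CPM in Vegfc-deficient hearts, each above every naive value. Pdgfrb rose by 0.86 (SE 0.24, 1.81-fold, adjusted p = 0.0137) in control and by 1.28 (SE 0.21, 2.44-fold, adjusted p = 0.000659) in Vegfc-deficient hearts, and by 1.26 without M149 (adjusted p = 0.00276). The call in control hearts was lost without M45 (adjusted p = 0.0742) or without M44 (adjusted p = 0.0836), with log2 differences of 0.89 and 0.84.

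Cspg4 encodes the proteoglycan NG2, a surface marker of pericytes and of some glial progenitors (ENSMUSG00000032911, chromosome 9, 56865033 to 56899870). Naive hearts were tightly grouped at 21.3 and 23.0 CPM in control and 20.6, 20.7 and 22.0 CPM in Vegfc-deficient libraries. MI control hearts had 24.6, 28.7 and 42.6 CPM, all above the naive ones, whereas MI Vegfc-deficient hearts had 19.9, 36.2 and 38.2 CPM, with M35 below every naive library. Fitted differences were 0.53 (SE 0.29, interval −0.11 to 1.17, adjusted p = 0.148) and 0.58 (SE 0.26, interval 0.01 to 1.15, adjusted p = 0.0743). The second was called without M35 (0.82, adjusted p = 0.00724), without MI control M40 (0.58, adjusted p = 0.0448) and by limma-voom with sample weights (0.71, adjusted p = 0.012). It was 0.61 without M149 (adjusted p = 0.112).

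**Figure D2:**
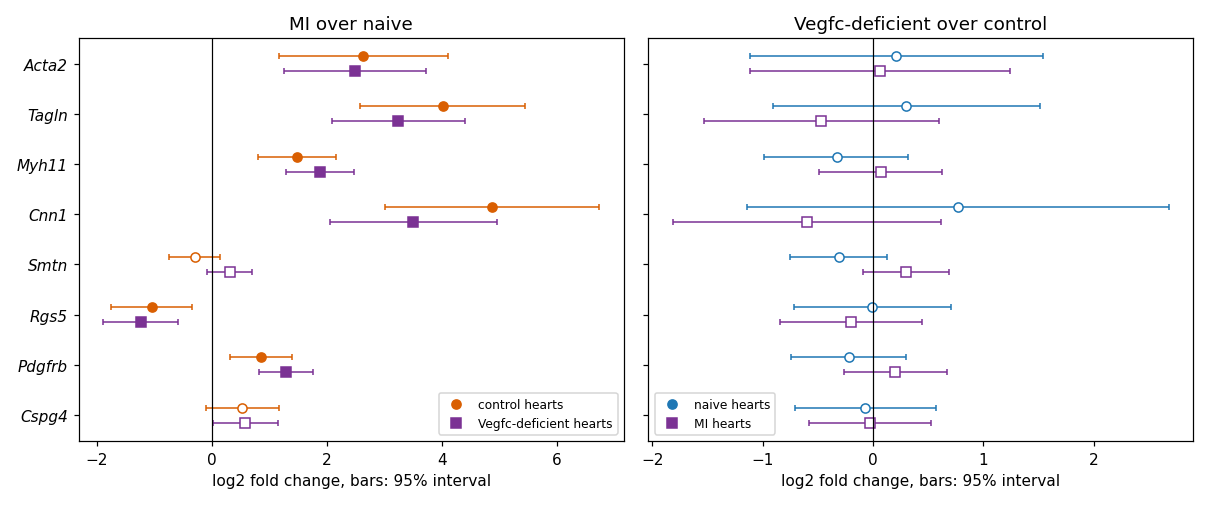
Log2 fold changes of the 8 genes with 95% intervals, MI over naive on the left and Vegfc-deficient over control on the right. Filled symbols have an adjusted p under 0.05. The MI panel holds filled symbols for 6 genes, from Cnn1 (4.87) down to Rgs5 (−1.24), and every interval of the genotype panel includes 0.

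Per kilobase of exon (RPKM, the scaled CPM divided by exon length), the order of the 8 genes differed between naive and MI hearts. In naive control hearts Rgs5 led at 301 ± 21.3 RPKM (SD, n = 2), ahead of Acta2 at 50.9 ± 20.4, Tagln at 23.8 ± 2.20, Pdgfrb at 20.6 ± 0.462, Smtn at 17.3 ± 0.895, Myh11 at 2.38 ± 0.601, Cspg4 at 1.86 ± 0.102 and Cnn1 at 0.559 ± 0.146 RPKM. None of these neighbours overlapped in their libraries, although n was 2. Naive Vegfc-deficient hearts had the same order of levels, with Rgs5 at 299 ± 39.1 RPKM (SD, n = 3), but there the ranges of Acta2 and Tagln, Tagln and Pdgfrb, Pdgfrb and Smtn, and Myh11 and Cspg4 overlapped.

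In MI control hearts Tagln (383 ± 198 RPKM, SD, n = 3) and Acta2 (316 ± 162 RPKM) stood above Rgs5 (145 ± 57.0 RPKM), with overlapping ranges of neighbours. Pdgfrb followed at 37.4 ± 10.6, Cnn1 at 16.4 ± 11.9, Smtn just below Cnn1, Myh11 at 6.61 ± 2.78 and Cspg4 at 2.68 ± 0.791 RPKM. Here Pdgfrb and Cnn1, and Cnn1 and Smtn, overlapped. In MI Vegfc-deficient hearts Acta2 (330.3 ± 174 RPKM) and Tagln (277 ± 144 RPKM) led, Rgs5 came next at 127 ± 25.3 RPKM, and Smtn at 17.3 ± 1.23 RPKM preceded Cnn1 at 10.8 ± 5.10 RPKM. Cnn1 was thus last of the 8 in every naive group and had a higher mean than Myh11 in both MI groups, with overlapping ranges in each.

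Ratios of counts within a library compare members without any scaling between libraries. Rgs5 had 11.3 to 18.1 counts for each Pdgfrb count in the 5 naive libraries and 1.54 to 4.78 in the 6 MI libraries. Both are pericyte genes, but fibroblasts carry Pdgfrb as well, so ratios to Pdgfrb are not measures within pericytes alone. The ratio of Rgs5 to Pdgfrb differed without overlap, and the lowest MI values were those of M40 (1.54) and M900 (1.62). Cspg4 to Pdgfrb was 0.183 to 0.248 in naive and 0.0972 to 0.161 in MI libraries, again without overlap.

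Tagln to Myh11 was 2.36 to 5.16 in naive and 4.52 to 18.2 in MI libraries. The MI library that reached into the naive range was M35 (4.52), and the other 5 lay between 10.7 and 18.2. Acta2 to Myh11 was 5.38 to 14.6 in naive and 5.76 to 18.3 in MI libraries, and here the ranges overlapped at M35 (5.76), M006 (8.86) and M40 (14.4) on the MI side and at M44 (6.73), M149 (7.51) and M150 (14.6) on the naive side. These ratios are descriptions and were not tested.

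**Figure D3:**
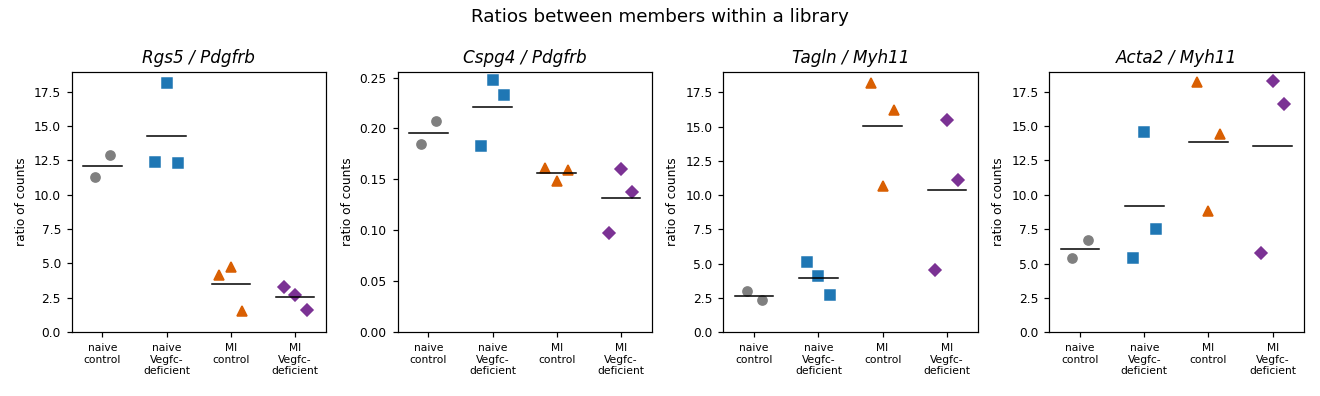
Ratio of counts of 1 member to another in each of 11 libraries (linear axis from 0), by group. Points are libraries and lines are group means. Rgs5 to Pdgfrb and Cspg4 to Pdgfrb separate naive from MI libraries, whereas Tagln to Myh11 and Acta2 to Myh11 overlap through M35 and others.

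Cnn1, Tagln and Acta2 varied more between libraries of the same state than the other members, in naive as in MI hearts. Among the 6 MI libraries the highest value was 5.79 times the lowest for Cnn1, 5.35 times for Tagln and 3.75 times for Acta2, beside a median of 1.55 over 11439 genes of at least 5 CPM. It was 2.25 times for Rgs5, 2.14 for Cspg4, 2.12 for Myh11, 1.81 for Pdgfrb and 1.51 for Smtn. Among the 5 naive libraries it was 3.32 times for Cnn1, 2.53 for Acta2 and 2.23 for Tagln, beside a median of 1.40, and 1.12 to 1.59 for the other members. Cnn1 had only 12 to 48 counts in the naive libraries, so counting error is part of its naive range. Its naive mean was 2.16 CPM, and it reached the mean of 5 CPM through the MI libraries. After MI, Acta2, Tagln and Cnn1 were each highest in MI control M40 and lowest in MI Vegfc-deficient M35, so both extremes lay in different genotypes.

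Heart muscle markers had their extremes in the same libraries. The summed level of 10 cardiomyocyte markers was 2968 CPM in M40, the lowest of the MI libraries, and 26599 CPM in M35, the highest, against 94676 to 119616 CPM in naive hearts. All 10 of these markers were called lower after MI in both genotypes, with Mb (myoglobin) at a mean of 37993 CPM in naive and 4806 CPM in MI hearts and Myl2 at 24412 and 2942 CPM. Rgs5 ran the other way from the actin-linked genes, lowest in M40 (412 CPM) and highest in M006 (929 CPM), where the cardiomyocyte sum was 14493 CPM. The part of the remaining heart muscle in these levels was not tested.

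Fibroblast and myofibroblast markers rose in the MI hearts in which Acta2, Tagln and Cnn1 rose. Of 10 such markers 9 were called higher in each genotype, and 1, Dcn, named after its values were seen, was not, and the summed level was 4487 to 6245 CPM in naive, 29525 to 39726 CPM in MI control and 36495 to 46573 CPM in MI Vegfc-deficient hearts. Postn, the matrix protein periostin, averaged 289 CPM in naive and 8531 CPM in MI hearts, and Col3a1 962 and 13815 CPM. The lowest of the MI sums belonged to M38 (29525 CPM), while M35, the library with the least Acta2, had 36495 CPM. Postn taken alone was lowest in M35 (6711 CPM) among the MI libraries. The part of fibroblasts in the rise of the actin-linked members was not tested.

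Of 10 blood endothelial markers, 4 were called lower and 0 higher after MI in control hearts, and 4 lower and 1 higher in Vegfc-deficient hearts, the latter being Cdh5, named after its values were seen, which was not called without M149 (0.44, adjusted p = 0.121). Their sum was 1475 to 2043 CPM in naive hearts, 753 to 1574 CPM in MI control hearts and 1033 to 1266 CPM in MI Vegfc-deficient hearts. Egfl7, which endothelial cells secrete, averaged 409.6 CPM in naive and 184 CPM in MI hearts, and Pecam1 240.2 and 226 CPM. Over all genes, 26.3% were called higher and 24.1% lower in control hearts, and 30.0% and 27.7% in Vegfc-deficient hearts. Macrophage markers were called higher in 5 of 10 in control and 6 of 10 in Vegfc-deficient hearts, and 0 were called lower. Without M149 the latter count was 9 of 10, and Lgals3, a marker abundant in activated macrophages, moved from 0.28 (adjusted p = 0.83) to 2.88 (adjusted p = 0.0152). Glial and Schwann cell markers, of interest because Cspg4 is also a glial gene, stayed between 16.8 and 37.7 CPM in sum, and 0 of the 4 tested were called in either genotype. Of 8 skeletal muscle markers, 5 were tested and 1 was called higher and 1 lower in each genotype. All members had counts in every library, and no defining marker among the 8 was at 0.

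A list of 18 genes was taken for the contractile apparatus beyond the 8 members, and all were tested. Not all 18 belong to the apparatus itself, Mcam for example being an adhesion molecule. In control hearts 9 were called higher, 3 lower and 6 not, with a median of 0.68 against 0.13 over all genes, and in Vegfc-deficient hearts 8 higher, 3 lower and 7 not, with a median of 0.25 against 0.097. Of all genes, 26.3% were called higher and 24.1% lower in control hearts, and 30.0% and 27.7% in Vegfc-deficient hearts. Actg2, the enteric smooth muscle actin, rose from a mean of 1.22 to 43.6 CPM in control hearts (log2 5.16, SE 0.90, adjusted p = 0.0013) and from 2.40 to 32.9 CPM in Vegfc-deficient hearts (3.82, SE 0.70, adjusted p = 0.0011). Tpm2, a tropomyosin, rose by 1.87 (SE 0.36, adjusted p = 0.00202) in control hearts and by 1.57 (adjusted p = 0.00157) in Vegfc-deficient hearts. Susd5 had the smallest p of the list in control hearts (4.06, SE 0.64, adjusted p = 0.000812), from 3 and 4 counts in the naive control libraries, at or near the floor, to 93, 100 and 206 counts after MI, so the size of its fold is uncertain. In Vegfc-deficient hearts Susd5 rose by 1.86 (adjusted p = 0.00681).

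In Vegfc-deficient hearts Cald1 (caldesmon, an actin-binding regulator of contraction) rose by 1.62 (SE 0.24, adjusted p = 0.000375), Myl9 (the smooth muscle regulatory light chain) by 2.16 (SE 0.34, adjusted p = 0.000512) and Lmod1 (leiomodin, which nucleates actin in smooth muscle) by 2.95 (SE 0.49, adjusted p = 0.000672). Mcam, an adhesion molecule of mural and endothelial cells, rose there by 1.18 (SE 0.20, from 63.0 to 143 CPM, adjusted p = 0.00074). In control hearts the means also went up, from 80.8 to 212 CPM for Cald1, 68.4 to 233 CPM for Myl9 and 68.9 to 127 CPM for Mcam. Lmod1 was at 2.50 and 2.72 CPM in naive control and at 7.27 to 16.2 CPM in MI control libraries. The change differed between genotypes by 0.22 for Cald1, 0.39 for Myl9, 0.87 for Lmod1 and 0.30 for Mcam. None of these differences was called (adjusted p from 0.745 to 0.89 by edgeR). Lmod1 had the same order as Acta2 over the 6 MI libraries, from 16.2 CPM in M40 to 6.70 CPM in M35. Among those that fell was Pcp4l1, by 2.74 (SE 0.45, adjusted p = 0.001) in control hearts, from 175 to 26.2 CPM. In Vegfc-deficient hearts Pcp4l1 fell by 2.43 (adjusted p = 0.000821). Tpm1, which heart muscle also uses, had a mean of 13786 CPM in naive control hearts and carried most of the list's summed level, so that the sum of the list fell, from 15122 to 21914 CPM in naive to 3627 to 7380.0 CPM in MI libraries, while most of the called genes rose.

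Of 16 regulators of smooth muscle genes, 5 were called higher and 5 lower in control hearts, with a median of 0.11 beside 0.13 over all genes, of which 26.3% were called higher and 24.1% lower. In Vegfc-deficient hearts 7 were called higher and 3 lower, beside 30.0% and 27.7% of all genes, with a median of 0.36 beside 0.097. Myocd (myocardin, the SRF partner of smooth and heart muscle) fell from a mean of 12.7 to 2.62 CPM in control hearts, by 2.27 (SE 0.38, adjusted p = 0.00108), and from 13.9 to 2.78 CPM in Vegfc-deficient hearts, by 2.33 (SE 0.36, adjusted p = 0.000403). Srf itself fell by 0.72 (SE 0.20, adjusted p = 0.0139) and by 0.66 (SE 0.18, adjusted p = 0.0116). Mrtfa, the myocardin relative that senses free actin, rose by 1.15 (SE 0.30, adjusted p = 0.00964) and by 1.31 (SE 0.27, adjusted p = 0.00197).

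The LIM-domain partners of SRF in the list moved in both directions. Csrp2 rose by 3.14 (SE 0.36, adjusted p = 0.000232) in control and 2.45 (SE 0.30, adjusted p = 0.000117) in Vegfc-deficient hearts, and Csrp1 by 1.24 (adjusted p = 0.0133) and 1.02 (adjusted p = 0.0144). Fhl2, a LIM protein that also binds SRF and is abundant in heart muscle, fell by 2.39 (SE 0.43, adjusted p = 0.00161) and by 2.72 (SE 0.41, adjusted p = 0.000395). Prrx1 and Rbpj were called higher in both genotypes, at log2 differences from 0.64 to 0.75. In Vegfc-deficient hearts Heyl, a Notch target of mural cells, rose by 1.21 (SE 0.27, adjusted p = 0.00353) and Tead1, the factor that reads MCAT letters, by 0.77 (SE 0.13, adjusted p = 0.000753). In control hearts Heyl differed by 0.59 (adjusted p = 0.13) and Tead1 by −0.0099 (adjusted p = 0.959). The difference between genotypes in these changes was 0.62 for Heyl (adjusted p = 0.668 by edgeR) and 0.78 for Tead1 (adjusted p = 0.534). Neither was called.

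Of 17 other pericyte and mural cell genes, all tested, 4 were called higher and 7 lower in control hearts, with a median of −0.50 beside 0.13 over all genes. In Vegfc-deficient hearts 6 were called higher and 6 lower, with a median of −0.36 beside 0.097. The shares of all genes called higher and lower were 26.3% and 24.1% in control hearts, and 30.0% and 27.7% in Vegfc-deficient hearts. Anpep, an aminopeptidase of pericytes that myeloid cells also carry and that is named here after its values were seen, differed by 0.18 in Vegfc-deficient hearts (adjusted p = 0.868) but by 2.86 without M149 (adjusted p = 0.000134). Abcc9, the regulatory subunit of the pericyte potassium channel that responds to ATP, fell by 2.26 (SE 0.44, adjusted p = 0.0022) in control and by 1.67 (SE 0.40, adjusted p = 0.00529) in Vegfc-deficient hearts. Its pore subunit Kcnj8, named here after its values were seen, was at 187 to 235 CPM in naive and 23.3 to 86.5 CPM in MI libraries, with its highest MI value in M006 and its lowest in M40, as for Rgs5.

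Cox4i2 (a cytochrome oxidase subunit) fell by 1.80 (SE 0.31, adjusted p = 0.00127), Vtn (vitronectin) by 2.74 (SE 0.42, adjusted p = 0.000758) in control hearts and by 1.15 (SE 0.38, adjusted p = 0.025) in Vegfc-deficient hearts, and Higd1b in Vegfc-deficient hearts by 2.63 (SE 0.41, adjusted p = 0.000465). Cox4i2 fell by 1.84 (adjusted p = 0.000482) in Vegfc-deficient hearts, and the mean of Higd1b went from 74.5 to 19.8 CPM in control hearts. In the opposite direction, both subunits of soluble guanylate cyclase, the nitric oxide receptor of mural cells, rose: Gucy1a1 by 2.67 (SE 0.31, adjusted p = 0.000245) in control and 2.63 (SE 0.26, adjusted p = 5.76e-05) in Vegfc-deficient hearts, and Gucy1b1 by 1.71 (SE 0.26, adjusted p = 0.00037) in Vegfc-deficient hearts. The mean of Gucy1b1 went from 48.5 to 126 CPM in control hearts. Notch3, the Notch receptor of mural cells, rose by 1.38 (SE 0.20, adjusted p = 0.000276) in Vegfc-deficient hearts and by 0.90 (SE 0.22, adjusted p = 0.00731) in control hearts.

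**Figure D4:**
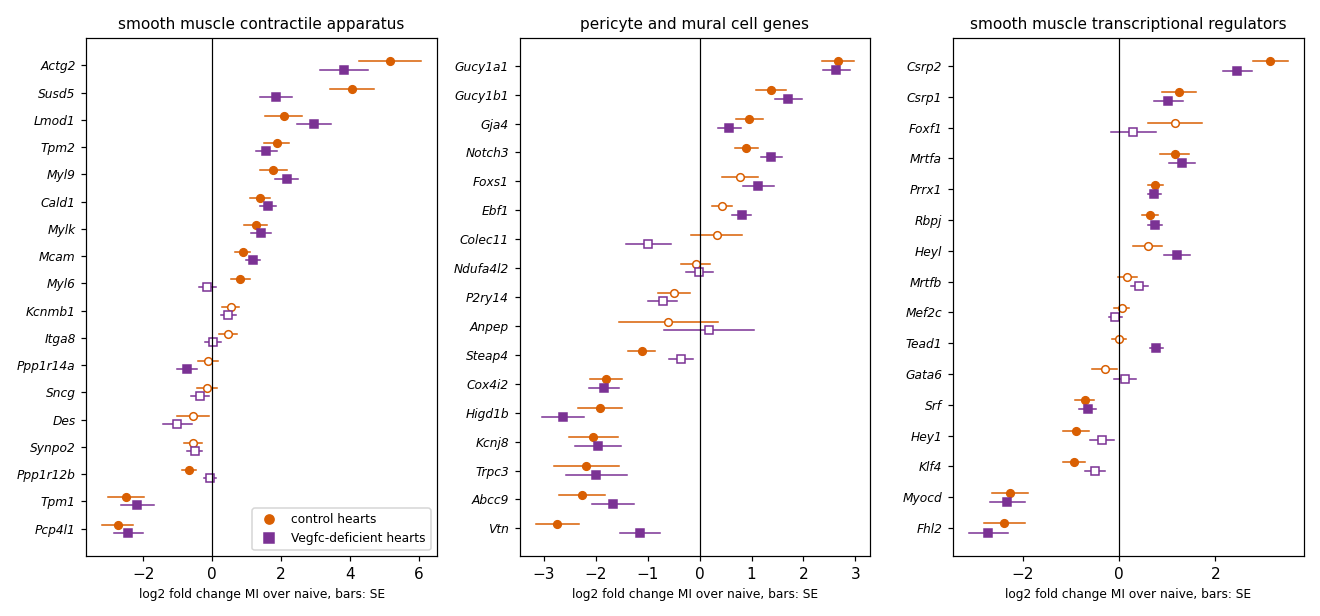
Log2 fold change of MI over naive with its SE for the genes of 3 lists, in control and Vegfc-deficient hearts, sorted by the value in control hearts. Filled symbols have an adjusted p under 0.05. The contractile list runs from Actg2 (5.16) to Pcp4l1 (−2.74), the pericyte list from Gucy1a1 (2.67) to Vtn (−2.74) and the regulators from Csrp2 (3.14) to Fhl2 (−2.39).

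On the ligand side of Pdgfrb, 6 genes of the PDGF family were tested. Pdgfb, the endothelial ligand of Pdgfrb, fell by 0.49 in control hearts (SE 0.17, from 58.1 to 41.3 CPM, adjusted p = 0.0369), and its difference was −0.12 in Vegfc-deficient hearts (adjusted p = 0.516). Between genotypes the change of Pdgfb differed by 0.37, which was not called (adjusted p = 0.668 by edgeR). Pdgfd, the other ligand of Pdgfrb, was not called in either genotype (0.38, adjusted p = 0.113, and −0.027, adjusted p = 0.897). Pdgfc, a ligand of the alpha receptor, rose by 2.52 (SE 0.36, adjusted p = 0.000546) and by 2.15 (SE 0.30, adjusted p = 0.000261), and Pdgfa by 0.91 (SE 0.25, adjusted p = 0.0128) and 0.72 (SE 0.22, adjusted p = 0.0174).

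Pdgfra, the alpha receptor of cardiac fibroblasts, rose by 0.74 in Vegfc-deficient hearts (SE 0.24, adjusted p = 0.0215), a call lost without M149 (0.65, adjusted p = 0.0666), and differed by 0.58 in control hearts (SE 0.27, adjusted p = 0.0929). Between genotypes the change of Pdgfra differed by 0.16, which was not called (adjusted p = 0.923 by edgeR). The largest rise of the family was that of Pdgfrl, a receptor-like gene, at 3.86 (SE 0.32, from 20.3 to 294 CPM, adjusted p = 9.24e-05) in control and 4.11 (SE 0.27, adjusted p = 1.99e-05) in Vegfc-deficient hearts.

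Paralogs of the members were listed as 20 genes, 19 of them tested. In control hearts 9 were called higher and 2 lower, and in Vegfc-deficient hearts 10 higher and 2 lower. Over all genes, 26.3% were called higher and 24.1% lower in control hearts, and 30.0% and 27.7% in Vegfc-deficient hearts. The median log2 fold change of the paralogs was 0.58 and 0.71, against 0.13 and 0.097 over all genes. Myh10, a nonmuscle myosin related to Myh11, rose by 1.58 (SE 0.23, adjusted p = 0.000609) in control and 2.41 (SE 0.21, adjusted p = 3.75e-05) in Vegfc-deficient hearts. Myh9, another nonmuscle myosin, rose by 1.80 (SE 0.27, adjusted p = 0.000357) in Vegfc-deficient hearts, and its mean went from 91.7 to 254 CPM in control hearts. Cnn3, the calponin of nonmuscle cells, rose by 1.01 (SE 0.20, adjusted p = 0.00232) and 1.22 (SE 0.17, adjusted p = 0.000273). Rgs16, of the same family as Rgs5, rose by 2.71 (SE 0.45, adjusted p = 0.00105) and 2.18 (SE 0.37, adjusted p = 0.000782), from means of 1.53 and 2.09 CPM in naive hearts. Acta2, Actg2 and the heart and skeletal actins have nearly the same coding sequence, and how reads that match several of them were counted was not given in the sources used here, so their counts are uncertain to that extent.

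The question of the study, the genotype, was put to the same 8 genes in MI hearts. None was called, none had an unadjusted p under 0.05 by edgeR, and none had groups without overlap, while 0% of all genes tested were called and 12.1% had such groups. Over all 14779 genes the unadjusted p was under 0.05 in 1173, and DESeq2's Wald test called 50 genes and limma-voom 0, with 0 members among them. The median difference of the 8 genes was 0.021, against −0.0073 over all genes.

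The intervals of these differences come from the fit with the spread of all groups, naive hearts included. They are thus not intervals of the 3 against 3 MI hearts alone. For Acta2 the difference, Vegfc-deficient minus control, was 0.066 with a 95% interval of −1.11 to 1.24, and for Tagln −0.47 with an interval of −1.53 to 0.60. For Cnn1 it was −0.60 (−1.81 to 0.62), for Myh11 0.071 (−0.49 to 0.63) and for Smtn 0.30 (−0.09 to 0.69). Pdgfrb was at 0.20 (−0.26 to 0.67), Cspg4 at −0.023 (−0.58 to 0.53) and Rgs5 at −0.20 (−0.84 to 0.44). In this fit a difference of 2-fold in either direction lay inside the interval of Acta2. A 2-fold lower level lay inside the intervals of Tagln and Cnn1 as well. For Myh11, Smtn, Rgs5, Pdgfrb and Cspg4 a 2-fold difference lay outside in both directions. Intervals from the spread of the MI hearts alone are not given here.

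In naive hearts none of the 8 was called either, and none had an unadjusted p under 0.05. Here 0% of all genes were called by edgeR, 499 of them had an unadjusted p under 0.05, DESeq2's Wald test called 14 and limma-voom 6, and 0 of those were members. Smtn was the 1 member of 8 whose groups did not overlap, as against 22.4% of all genes: its 3 Vegfc-deficient values (72.0, 62.1 and 49.5 CPM) lay below both control values (73.1 and 78.7 CPM). The difference of Smtn was −0.31 (interval −0.75 to 0.13), or −0.18 without M149, which held the lowest value. The other differences ran from −0.33 (interval −0.99 to 0.32) for Myh11 to 0.77 (interval −1.14 to 2.68) for Cnn1, and these were −0.29 and 1.12 without M149.

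Whether MI acted differently in the genotypes was tested with the interaction. None of the 8 was called, as 0% of all genes were, and 1 (Smtn) had an unadjusted p under 0.05, as 1226 of all genes had. For Smtn the interaction was 0.61 on the log2 scale (SE 0.27, interval 0.02 to 1.20, adjusted p = 0.598). The widest was that of Cnn1 at −1.37 (interval −3.63 to 0.89, adjusted p = 0.716). Without M149 the interaction was 0.48 for Smtn (adjusted p = 0.503) and −1.72 for Cnn1 (adjusted p = 0.555). DESeq2's Wald test called 54 genes for the interaction and limma-voom 0, and 0 members were among them.

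Outside the 8, 0 genes of the lists were called in a genotype comparison or for the interaction with all libraries in the fit. Without M149, Anpep alone of the listed genes was called, lower in naive Vegfc-deficient hearts (−2.91, adjusted p = 0.016) and for the interaction (3.47, adjusted p = 0.0221). In MI hearts the smallest p among the regulators was that of Tead1, at a mean of 47.5 CPM in Vegfc-deficient and 34.5 CPM in control hearts, with no overlap (log2 0.46, SE 0.13, adjusted p = 0.584). Among contractile genes Ppp1r14a, an inhibitor of myosin phosphatase, was at 8.63 and 16.9 CPM (−0.97, SE 0.28, adjusted p = 0.584), and Ppp1r12b, a subunit of that phosphatase, at 38.9 and 26.3 CPM (0.56, SE 0.18, adjusted p = 0.584). Both pairs of groups did not overlap. Myl6, the essential light chain, was at 271 and 439.6 CPM (−0.70, SE 0.25, adjusted p = 0.584), again without overlap, and Vtn of the pericyte list at 30.7 and 15.5 CPM (0.99, SE 0.38, adjusted p = 0.593) with overlap.

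The genes whose profile over the 11 libraries was most like that of each member were found by the root mean square difference of log2 CPM, each gene centred on its own mean, among 11439 genes. Tagln and Cnn1 were each other's nearest gene (0.30), and the next for Cnn1 was Actg2 (0.33) and then Timp1 (0.44), an inhibitor of matrix proteases. The lysyl oxidase relative Loxl3 (0.33) was also among the genes nearest to Tagln. Acta2 was nearest to Adamtsl3 (0.31), Cgref1 (0.36) and Inhba (0.37), a subunit of activin. Over all genes the median was 1.37 for Acta2, 1.82 for Tagln and 1.96 for Cnn1.

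Pdgfrb was nearest to Notch3 (0.10) and Mcam (0.11), both mural cell genes, and to Yeats2 (0.11), with a median of 0.64 over all genes. The other pericyte members lay further from Pdgfrb, Cspg4 at 0.36 (rank 1677) and Rgs5 at 1.23 (rank 9809). Myh11 was nearest to Aplp1 (0.12), Numbl (0.15) and Farp1 (0.17). For Rgs5 the nearest were Mrrf (0.15), Hspa12b (0.15), a gene of endothelial cells, and Tspan12 (0.16). For the members that were not called the nearest were Sipa1l2 (0.10), Chrd (0.12) and Pja1 (0.14) for Smtn, and Lsm11 (0.13), Ykt6 (0.15) and Sumf2 (0.16) for Cspg4. All genes share the same 11 libraries, of which 6 are MI hearts, so these values describe likeness in these hearts only.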

How the data were processed

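The authors deposited 1 table per library of raw counts per Ensembl gene, without normalization. According to the submitters' processing notes and the labels, TruSeq stranded mRNA libraries were handled with cutadapt 1.13, STAR, HTSeq 0.6.1p1 and DESeq2 1.14.1 on mm10. The strand setting of the counting is not given in the sources used here. Identifiers were matched to GENCODE release M21 (24991 of 25006). The 8 members and all gene lists were chosen with earlier results of these data known.

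Counts of the 11 libraries (10824989 to 26782728 per library) entered 1 fit in edgeR 4.0.16 (R 4.3.3) with 1 coefficient per group, TMM factors, filterByExpr and the quasi-likelihood test, Benjamini-Hochberg adjusted over 14779 genes, threshold 0.05. SE is the log2 fold change divided by the root of F, and the 95% interval uses the fit's t distribution. Alternatives were DESeq2 1.42.0, limma 3.58.1 (voom), other scalings and filters, other thresholds, a length trend and leaving out each library. Likeness used log2(CPM + 0.5) of genes of at least 5 CPM. The scripts were tested on simulated counts. Besides the members, genes could be named from the regulator and PDGF lists, as the 4 smallest p of the contractile, pericyte and paralog lists in each comparison, as the 2 most abundant markers of other cell types, and as the 3 genes most like each member. Not every gene that could be named is described, and for Tagln 1 of the genes most like it is not reported here.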

Additional observations from a re-analysis of the deposited data

How the results depend on the processing

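With 11 libraries and 2 naive controls, the calls of the control comparison rest on few hearts: 6 members were called, 3 without naive control M45 (Acta2, Rgs5 and Pdgfrb lost) and 4 without naive control M44, so that the count ran from 3 to 7 over the leave-one-out fits (7 without MI control M40, with Smtn). Without M149, the numbers called higher and lower in the Vegfc-deficient MI comparison were 8 and 4 of the contractile list, 8 and 3 of the regulators, 6 and 7 of the pericyte list, 3 and 0 of the PDGF family, 10 and 2 of the paralogs, 8 and 0 of the fibroblast, 0 and 4 of the endothelial, 9 and 0 of the macrophage and 0 and 1 of the skeletal muscle markers. In that comparison the count of members called was 6, and no alternative moved it by more than 1.5 times. The count of all genes called in the control comparison was 7450, and 4574 without M45, 4880 without M44, 4798 at an adjusted p under 0.01 and 4550 with a log2 fold change of at least 1. In the Vegfc-deficient comparison it was 8520, and 4965 with that fold. Without M149, 17 genes were called between the naive genotypes and 1 for the interaction, with 0 members among them. Rgs5 and Pdgfrb in control hearts missed an adjusted p of 0.01. No paired analysis was possible because the mouse numbers are unique to each library.

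In the MI comparisons no member changed direction under any alternative. Differences near 0 between genotypes did: with limma-voom Cspg4 in MI hearts was 0.12, Rgs5 in naive hearts 0.025 and the interaction of Acta2 0.29, and with the length trend removed Myh11 in MI hearts was −0.0098, Rgs5 in naive hearts 0.0032 and the interaction of Cspg4 −0.12. Leaving out 1 library at a time, the genotype difference in MI hearts ran from −0.11 to 0.47 for Myh11, −0.25 to 0.53 for Acta2, −0.44 to 0.13 for Rgs5, −0.80 to 0.025 for Tagln, −0.99 to 0.12 for Cnn1 and −0.16 to 0.24 for Cspg4. In naive hearts it ran from −0.27 to 0.69 for Acta2, −0.091 to 0.092 for Rgs5 and −0.025 to 0.55 for Tagln, and the interaction from −0.62 to 0.33 for Acta2, −0.081 to 0.31 for Cspg4 and −0.44 to 0.18 for Rgs5. None of these was called. The cause was not tested.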

Other observations

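Actin genes that were not members stood apart in level, and are named here after their values were seen. Actb, the beta-actin of most cells, averaged 850.0 CPM over the 5 naive and 1328 CPM over the 6 MI libraries, whereas Actg1, its near-identical cytoplasmic relative, averaged 8.42 and 6.87 CPM. Neither was called in either MI comparison with all libraries by edgeR (quasi-likelihood test, p adjusted by the method of Benjamini and Hochberg; Actb 0.65, adjusted p = 0.0891, and 0.63, adjusted p = 0.0591; Actg1 −0.44, adjusted p = 0.151, and −0.17, adjusted p = 0.515). Without M149, Actb was called in Vegfc-deficient hearts (0.82, adjusted p = 0.0318 by edgeR). How reads that match more than 1 actin gene were counted was not given in the sources used here, and the cause of the low level of Actg1 was not tested.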
